A study of Mus musculus with 9 samples.

Results

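The genes described here are 7 of the 48440 in the count tables: 5 that encode secreted factors linked to cell stress (Inhbe, Gdf15, Fgf21, Adm2 and Stc2), the lipoprotein receptor gene Vldlr and the fucosyltransferase gene Fut1. They were chosen by their measured levels in these libraries, since several were much higher in auxin-treated cells than in control cells and fell again when auxin was removed. Those 2 differences are therefore given below as descriptions, without a test. All 7 passed the filter on low counts and so were among the 20838 genes tested, but 4 of them (Inhbe, Adm2, Fgf21 and Fut1) passed it only through their Auxin libraries. Gdf15, Stc2 and Vldlr also passed it in the 6 libraries without Auxin.

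The cells were J1 mouse embryonic stem cells, grown on gelatin with serum, LIF and the inhibitors PD0325901 and CHIR99021. Every group, the control included, carried the Suz12-AID genotype, in which Suz12 is fused to a degron that lets auxin trigger destruction of the protein. The complex that Suz12 holds together, Polycomb repressive complex 2, places the repressive H3K27 methyl mark. Mock cells were the control, and Auxin cells were kept in 50 µM indole-3-acetic acid for 96 h. Re-introduction cells had the same 50 µM auxin for 96 h, which was then washed out for 4.5 h. There were 3 biological replicates per group. The labels do not say how many clones were used, and no group in the files lacked the degron while receiving auxin, so an effect of auxin itself and of Suz12 loss cannot be told apart.

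Many of these genes are textbook readouts of the integrated stress response. In that response, kinases that sense amino acid shortage, unfolded protein, viral RNA or haem deficiency phosphorylate the translation factor eIF2, bulk protein synthesis falls, and translation of the transcription factor ATF4 goes up. ATF4 with its partners CHOP (Ddit3) and C/EBP proteins then switches on genes for amino acid supply, redox balance and, among others, secreted hormones such as FGF21 and GDF15 that signal metabolic stress to other tissues.

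Libraries held between 44341283 and 113931419 counts, with both mates of a pair counted. Suz12 mRNA was 133 ± 6.62 CPM in Mock, against 141 ± 16.9 CPM with Auxin and 168 ± 4.47 CPM in Re-introduction (mean ± SD, n = 3 each); CPM here is the depth-normalised read count after TMM scaling, and because the degron acts on protein, the mRNA is no measure of depletion. All 10 pluripotency markers listed were detected, with a summed level of 6280 to 6450 CPM in Mock, of 7740 to 8310 CPM with Auxin and of 6030 to 6080 CPM after washout. Of these 10, 7 were called higher and 3 lower in Auxin against Mock. The 3 were Pou5f1 (-0.53 on the log2 scale, sharing exon sequence with Gm19553), Dppa5a (-1.16) and Sall4 (-0.14). Sall4 was 0.07 and not called with total counts in place of TMM scaling. Mitochondrial genes took 3.79% to 4.0% of counts in Mock and Auxin and 4.58% to 4.80% in Re-introduction. Auxin replicate 2 stood apart from the other Auxin libraries, with a chi-square per gene of 62.33 and 78.37 against them, where Auxin replicates 1 and 3 gave 8.19 between themselves.

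Before the levels, the promoters are shown, because 3 of the 7 genes carry the same rare 8-base word near an annotated start. The word TGATGCAA, the core of the composite element bound by C/EBP and ATF proteins, was searched on both strands in windows from 250 bases before to 50 bases after RefSeq transcription starts (GRCm38.p6, the assembly that mm10 names). It occurred in a window of Fgf21, Inhbe and Vldlr, beside 1.03% of the 27025 genes with windows and 0.895% of their 32851 windows. In each of the 3 it lies on the opposite strand and so reads TTGCATCA, which the capitals mark. The Fgf21 stretch is the 250 bases upstream of the start on the minus strand, chr7:45615491-45615740, outside annotated exons, with the word at position -139 from the start. The Inhbe stretch is chr10:127352011-127352040 on the minus strand (word at position -181) and the Vldlr stretch is chr19:27216809-27216838 on the plus strand (word at position -200 from the second of its 2 annotated starts). Both of these stretches lie within exons that the GENCODE annotation at hand gives to the same gene, so only 30 bases are shown. That annotation differs from the gene models of the count tables, in which the Inhbe stretch lies upstream of the gene as counted.
Fgf21: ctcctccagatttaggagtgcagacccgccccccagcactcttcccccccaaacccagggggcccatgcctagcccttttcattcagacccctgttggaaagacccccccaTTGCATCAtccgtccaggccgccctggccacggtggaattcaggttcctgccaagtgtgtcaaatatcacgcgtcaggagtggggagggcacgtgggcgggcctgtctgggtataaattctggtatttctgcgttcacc
Inhbe: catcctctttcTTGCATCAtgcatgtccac
Vldlr: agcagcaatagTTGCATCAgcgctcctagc

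The 7 genes have 9 such windows, since Gdf15 and Vldlr each have 2 starts. The looser word TGATGNAA, of which every TGATGCAA is also a match, was found in the same 3 genes, beside 4.51% of all genes and 3.97% of all windows. ACGTG occurred in windows of Fgf21, Gdf15 and Inhbe, beside 21.8% of all genes and 19.6% of all windows. TGACGTCA occurred in 0 of the 7 genes, beside 2.03% of all genes and 1.79% of all windows. A match says only that the letters are present, and the windows of Adm2, Stc2 and Fut1 may be read only as lacking these letters within 300 bases. The windows differed in CG content, with 28 CG dinucleotides in that of Stc2 and 23 in the second of Vldlr, against a median of 7 over all windows.

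Among the other tested genes, 86 had TGATGCAA in a window and 12206 matched by symbol did not. In Auxin against Mock, 53.5% of the genes with the word and 42.6% of those without it were called higher. In Re-introduction against Auxin, 48.8% and 29.4% were called lower. These shares are a description, and no test of the word was made.

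In Mock the 7 genes were low or absent. All 3 Auxin libraries lay above all Mock and all Re-introduction libraries for each of the 7. After 4.5 h of washout, Stc2 and Vldlr were still above Mock in every library, while the Mock and Re-introduction ranges of the other 5 overlapped. The plot of levels by library shows these 3 states side by side.

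**Figure D1:**
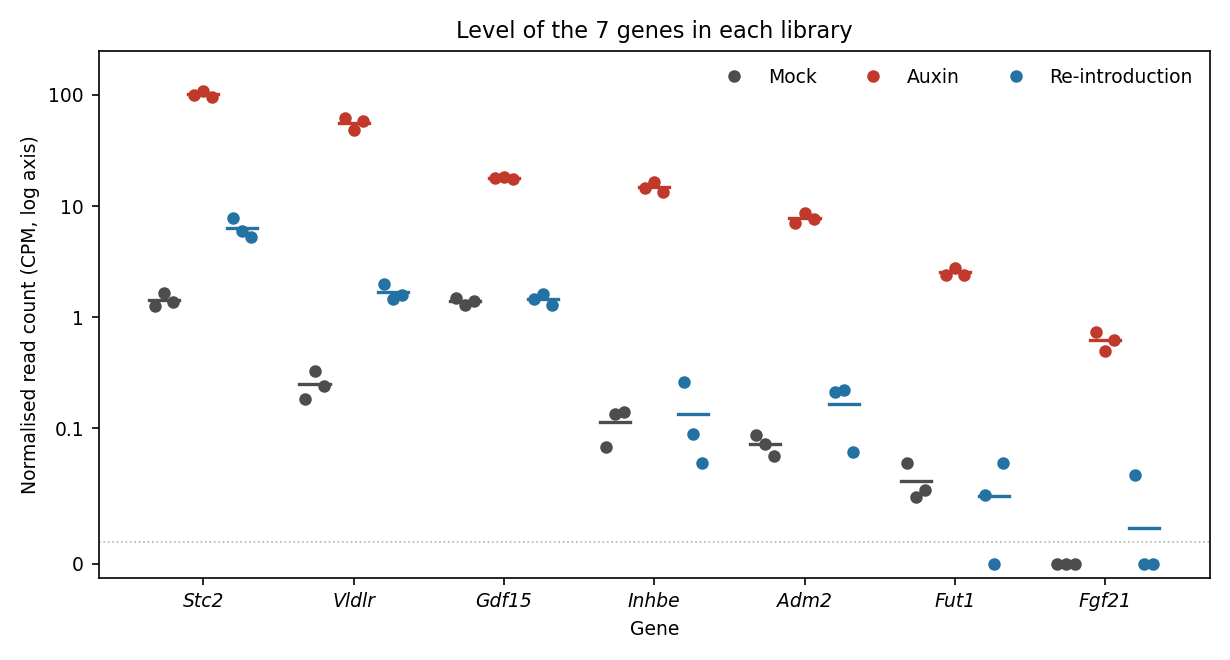
Normalised read count (CPM, log axis, with 0 placed below the dotted line) of each gene in each of the 9 libraries; points are libraries and bars are group means. Every Auxin point lies above every Mock and Re-introduction point of the same gene, and only Stc2 and Vldlr have all 3 blue points above all 3 grey ones.

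Inhbe (ENSMUSG00000047492.4; mm10 chromosome 10, 127349402 to 127351772, minus strand) encodes the beta E subunit of activins, dimeric ligands of the TGF-beta superfamily, and is best known as a liver-derived factor. The Mock libraries had 7, 11 and 10 counts, the Auxin libraries 1195, 1248 and 923 counts, and the Re-introduction libraries 21, 4 and 4 counts. As normalised values these were 0.0679, 0.133 and 0.140 CPM, then 14.6, 16.4 and 13.5 CPM, then 0.263, 0.0891 and 0.0490 CPM. The Auxin mean of 14.8 ± 1.46 CPM was 130-fold the Mock mean of 0.114 ± 0.0396 CPM (n = 3 each), which is 7.06 on the log2 scale (SE 0.29). After washout 0.904% of the Auxin level was left, a log2 fold change of -6.71 (SE 0.29). Re-introduction replicate 1 lay above all Mock libraries for this gene and the other 2 Re-introduction libraries fell within or below the Mock range. Without replicate 1 the change was -7.84 on the log2 scale.

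Gdf15 (ENSMUSG00000038508.7; chromosome 8, 70629393 to 70632456, minus strand) encodes a distant TGF-beta family hormone that suppresses appetite through the receptor GFRAL with RET. With Stc2 it was 1 of the 2 genes above 1 CPM in every Mock library. Mock replicates 1 to 3 held 1.48, 1.29 and 1.41 CPM, the Auxin libraries 17.9, 18.1 and 17.5 CPM, and the Re-introduction libraries 1.46, 1.6 and 1.29 CPM. The rise was 12.8-fold, or 3.67 on the log2 scale (SE 0.093), the smallest of the 7. It was also the most even between replicates, with a coefficient of variation of 1.89% in Auxin. The change after washout was -3.64 (SE 0.095), which returned 99% of the log2 rise, and the Mock and Re-introduction ranges overlapped.

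Fgf21 (ENSMUSG00000030827.5; chromosome 7, 45613886 to 45615490, minus strand) encodes a fasting hormone of the liver that acts through FGF receptors with the co-receptor beta-Klotho (Klb). It had 0 counts in all 3 Mock libraries, 60, 38 and 43 counts in Auxin, and 3, 0 and 0 counts in Re-introduction. In Auxin these were 0.732, 0.499 and 0.628 CPM. Set against a floor of 3 counts over the Mock group (0.0117 CPM), it was at least 53.4-fold higher in Auxin. The 141 counts in Auxin and 3 in Re-introduction gave a depth-scaled ratio of 42.8, with an exact 95% counting interval of 14.3 to 210 that describes these counts and is no test of the groups. All 3 of the Re-introduction counts came from replicate 1. Floors and intervals of this kind cover counting error only, and since both mates of a pair were counted and the labels name no molecular identifiers, the true uncertainty is wider.

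Adm2 (ENSMUSG00000054136.5; chromosome 15, 89322972 to 89324728, plus strand) encodes adrenomedullin 2, a vasodilator peptide of the calcitonin family. The Mock libraries had 0.0874, 0.0724 and 0.0560 CPM, the Auxin libraries 7.05, 8.71 and 7.70 CPM, and the Re-introduction libraries 0.213, 0.223 and 0.0613 CPM. The Auxin mean was 109-fold the Mock mean, a log2 fold change of 6.70 (SE 0.27), and the change after washout was -5.63 (SE 0.25). Re-introduction replicates 1 and 2 lay above all Mock libraries and replicate 3 fell among them.

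Stc2 (ENSMUSG00000020303.2; chromosome 11, 31357307 to 31370074, minus strand) encodes stanniocalcin 2, a glycoprotein known to block the protease PAPP-A and so the release of IGF. Its level per kilobase in Auxin was the highest of the 7. Mock replicates 1 to 3 held 129, 136 and 97 counts, the Auxin libraries 8199, 8261 and 6524 counts, and the Re-introduction libraries 628, 270 and 431 counts. As normalised values these were 1.25, 1.64 and 1.36 CPM, then 100, 108 and 95.3 CPM, then 7.88, 6.01 and 5.28 CPM. Auxin was 71.4-fold above Mock, a log2 fold change of 6.16 (SE 0.16). Washout brought a change of -3.98 (SE 0.14), and all 3 Re-introduction libraries remained above all 3 Mock libraries.

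Vldlr (ENSMUSG00000024924.14; chromosome 19, 27216484 to 27254231, plus strand) encodes the very low density lipoprotein receptor, a member of the lipoprotein receptor family that takes up triglyceride-rich lipoprotein and serves as a Reelin receptor. The Mock libraries had 0.184, 0.326 and 0.238 CPM, the Auxin libraries 62.5, 48.2 and 58.2 CPM, and the Re-introduction libraries 2.00, 1.47 and 1.57 CPM. The 226-fold difference between Auxin and Mock, 7.83 on the log2 scale (SE 0.18), was the widest of the 6 genes for which a fold can be given. The change after washout was -5.05 (SE 0.15). The lowest Re-introduction library was still above the highest Mock library.

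Fut1 (ENSMUSG00000008461.6; chromosome 7, 45617289 to 45621059, plus strand) encodes an alpha-1,2-fucosyltransferase that makes the H antigen on cell surface glycans. It is the one gene of the 7 that acts in the Golgi on other molecules' sugars. Mock replicates 1 to 3 held 5, 2 and 2 counts, the Auxin libraries 196, 212 and 165 counts, and the Re-introduction libraries 2, 0 and 4 counts. In Auxin it had 2.39, 2.78 and 2.41 CPM, 75.3-fold the Mock mean and 6.12 higher on the log2 scale (SE 0.32). After washout it changed by -6.37 (SE 0.34), or by -7.18 without Re-introduction replicate 3, and the Mock and Re-introduction ranges overlapped.

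Compared per kilobase of exon, which allows genes to be ranked, the order in Auxin was Stc2 (19.6 ± 1.28 CPM per kb), Gdf15 (9.63 ± 0.182), Adm2 (7.50 ± 0.803), Inhbe (6.94 ± 0.684), Vldlr (5.59 ± 0.731), Fut1 (0.907 ± 0.0791) and Fgf21 (0.651 ± 0.123), all mean ± SD of 3 libraries. Adm2 and Inhbe differed by less than their SDs. In Mock the order of levels per kilobase was led by Gdf15 (0.752 ± 0.0504 CPM per kb) and Stc2 (0.274 ± 0.039), and in Re-introduction by Stc2 (1.24 ± 0.259) and Gdf15 (0.782 ± 0.0857). The per-kilobase level of Gdf15 was thus above that of Stc2 in Mock and below it in both other groups.

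In Auxin against Mock, 38.4% of all tested genes were called higher and 34.8% lower, and in Re-introduction against Auxin, 50.9% were called, 25.5% higher and 25.5% lower (edgeR quasi-likelihood test, Benjamini-Hochberg adjusted p under 0.05). The rule used these contrasts, so nothing is read from the 7 being among them. The median log2 fold change of the 7 was 6.16 in Auxin against Mock, with Fgf21 at its bound, beside 0.05 over all genes. It was -5.27 in Re-introduction against Auxin, beside 0.0027 over all genes. Of the 20838 genes, 541 (2.6%) were at least 3 higher on the log2 scale in Auxin than in Mock, 88 (0.422%) were at least 3 lower in Re-introduction than in Auxin, and 57 (0.274%) met both, the 7 among them. With total counts in place of TMM scaling, the median of all genes moved from 0.05 to 0.26 in Auxin against Mock and from 0.03 to 0.16 in Re-introduction against Mock. The share of called genes that were higher then went from 52.4% to 63.3% in Auxin against Mock and from 50.0% to 40.1% in Re-introduction against Auxin, and directions below are relative to TMM scaling.

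Re-introduction against Mock asks what was left of the difference after 4.5 h. The rule names the other contrasts, but it used the same libraries, so these tests are not independent of it. Of the 3 genes that passed the filter without the Auxin libraries, Stc2 and Vldlr were called, both higher, and Gdf15 was not, where 68.1% of all tested genes were called in either direction, 34.7% were called higher and 33.4% lower. Stc2 was 4.51-fold above Mock, a log2 fold change of 2.18 (95% interval 1.84 to 2.52; edgeR quasi-likelihood, adjusted p = 4.57e-07). Vldlr was 6.73-fold above Mock, a log2 fold change of 2.78 (95% interval 2.29 to 3.27, adjusted p = 1.07e-06). Both were higher in 3 of 3 Re-introduction libraries than in any Mock library. On the log2 scale 64.6% of the Stc2 rise and 64.5% of the Vldlr rise had been returned. In CPM, 6.31% of the Auxin level of Stc2 and 2.98% of that of Vldlr was left.

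**Figure D2:**
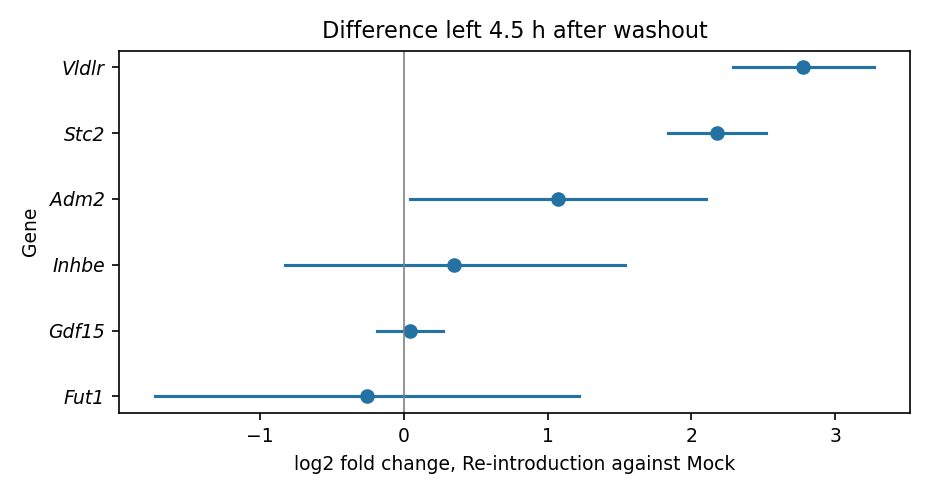
Log2 fold change in Re-introduction against Mock of the 6 genes with counts in both groups; points are estimates and lines are 95% intervals from the edgeR fit. The intervals of Vldlr (2.29 to 3.27) and Stc2 (1.84 to 2.52) lie well above 0. That of Gdf15 (-0.19 to 0.27) is the narrowest around 0 and may be too narrow. Those of Adm2, Inhbe and Fut1, which entered the fit only through their Auxin libraries, are a description and no test.

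Gdf15 differed from Mock by 0.04 on the log2 scale and was not called (95% interval -0.19 to 0.27, edgeR quasi-likelihood, adjusted p = 0.867). Its unadjusted p of 0.842 in that test is larger than the standard error behind the interval would give, so the interval may be too narrow. For the 4 genes that entered the fit only through their Auxin libraries, the differences are given as a description, without a p. Their intervals are likewise a description and no test of the groups. The Inhbe difference was 0.35 (interval -0.83 to 1.54) and that of Fut1 was -0.26 (interval -1.73 to 1.22), and both intervals reach past a 2-fold difference. Adm2 was 2.31-fold above Mock on means, with a log2 fold change of 1.07 (interval 0.04 to 2.10), and without Re-introduction replicate 3 it was 1.52. These values rest on 19 Adm2 counts in all of Mock and 32 in all of Re-introduction, so nothing is read from that interval lying just above 0. Fgf21 was at or under the floor in both groups and is given no fold. Without Re-introduction replicate 1 the Inhbe difference was -0.79. That library had the highest value of its group for Inhbe, Fgf21, Stc2 and Vldlr.

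The likeness of profiles was measured as Pearson's r of log2 CPM over the 9 libraries, which fall into 3 groups, so that any gene high in Auxin scores well. Among themselves the 7 genes ranged from 0.905 (Stc2 with Fut1) to 0.998 (Stc2 with Vldlr). Of all tested genes with at least 1 CPM in their highest group, Vldlr was the one most like Stc2 and Stc2 the one most like Vldlr. Next for Vldlr came Pde4dip (which shares exon sequence with Mir7225) and Lncenc1, and next for Stc2 came Cybrd1 and 2810013P06Rik.

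For the other 5 genes, the most alike profiles were those of genes outside the 7. Ddit4, an mTORC1 inhibitor, was most like Inhbe (r = 0.9944), going from 11.1 to 311 and back to 12.4 CPM across Mock, Auxin and Re-introduction. It was followed by Dcp1b, a decapping factor, and Hrk, a pro-apoptotic BH3 gene, which went from 1.96 to 67.6 and back to 2.26 CPM. Amdhd2 (r = 0.9984), Slc44a2 and the glutamine transporter gene Slc1a5 were most like Gdf15. C920006O11Rik (r = 0.9970), P2rx7 (which shares exon sequence with Mir8115) and Col26a1 were most like Adm2. For Fgf21 these were Ciz1 (r = 0.9954, sharing exon sequence with 1110008P14Rik), Dcp1b and Neat1, which shares exons with other genes, and for Fut1 they were Galns (r = 0.9952), Jdp2 and Mettl27.

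Fgf21 and Fut1 are direct neighbours on chromosome 7, transcribed away from each other, with gene starts 1799 bp apart. Both were high in Auxin, whereas the genes around them were lower there or not called. Izumo1, the sperm-egg fusion gene on the far side of Fut1 (exon sequence shared with Rasip1), changed by 0.18 in Auxin against Mock, which was not called (edgeR, adjusted p = 0.504). Rasip1 fell by 1.65 and Bcat2 by 1.27 on the log2 scale in the same comparison, each with exons shared by other genes. Inhbc, the beta C subunit gene 4556 bp from Inhbe, changed by -0.46 in Auxin against Mock, which was not called (adjusted p = 0.283). After washout Inhbc fell by 1.69 (from 0.203 to 0.0606 CPM) and Izumo1 by 2.30 (from 0.434 to 0.0843 CPM), both at low levels. Over the 36 nearest neighbours of the 7 genes, 3 on each side, 20 were tested. Of these, 8 passed the test upward and 8 downward in Auxin against Mock, with a median of -0.25, beside 73.2% of all genes called. In Re-introduction against Auxin 4 passed upward and 7 downward, with a median of -0.08, beside 50.9% of all genes. Ppp6r2, 36711 bp from Adm2, had the highest value in Auxin against Mock, 2.84.

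Related ligands were mostly unexpressed. Of 10 relatives of the 5 secreted factors listed, 4 could be tested, of which 1 rose and 2 fell in Auxin against Mock. Inhbb, the activin beta B subunit gene, rose from 20 to 74.1 CPM in Auxin (1.89 on the log2 scale) and was at 68.1 CPM in Re-introduction, where the change of -0.12 was not called (edgeR, adjusted p = 0.188). Fgf15, the intestinal relative of Fgf21, fell by 2.35, and Calca, the calcitonin gene, fell by 0.26; Fgf15 shares exon sequence with other genes, and the Calca call was lost with total-count scaling (-0.05) and with the length trend removed, where it was 0.04. Inhba had 0 counts in all 9 libraries, which allows 3 counts per library.

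Receptors and binding partners of the 7 gene products were examined next. Of 26 listed genes 20 were tested, and in Auxin against Mock 8 rose and 3 fell, a share of higher calls near the 38.4% of all genes. With total counts 10 were called higher and 1 lower. Gfral, the receptor of GDF15, had 0 counts in all 9 libraries, while Ret, its signalling partner, rose by 2.36 in Auxin (from 0.670 to 3.44 CPM) and fell by 1.24 after washout. Calcrl, which with RAMP proteins forms the receptors of calcitonin-family peptides such as adrenomedullin 2, rose by 3.69 from 0.0527 to 0.720 CPM and fell by 1.43 after washout.

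The co-receptor gene of FGF21, Klb, was low in all groups (0.178, 0.228 and 0.125 CPM) and its change in Auxin of 0.37 was not called (edgeR, adjusted p = 0.462). Fgfr1 had 106 CPM in Mock and 114 CPM in Auxin, a change of 0.10 that was not called (adjusted p = 0.0514) but was called higher with total-count scaling (0.31) and lower with the length trend removed, at -0.40. Among activin receptors, Acvr1b rose by 1.11 and Acvr2a by 1.74, and the latter shares exon sequence with Orc4. Acvr2b changed by -0.03, which was not called (edgeR, adjusted p = 0.823) and turned to 0.19 with total counts and 0.26 with the length trend removed, and Acvr1c was at or near 0 in all groups. Pappa, whose protease STC2 blocks, was at or near 0 in all groups.

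Lrp8, the other Reelin receptor of the lipoprotein receptor family, went opposite to Vldlr. It fell from 4.71 to 2.89 CPM in Auxin (-0.70 on the log2 scale; edgeR, adjusted p = 8.44e-05) and rose to 16 CPM after washout, a change of 2.46 (adjusted p = 1.48e-08) that left it 1.77 above Mock. Mylip, a ubiquitin ligase for lipoprotein receptors, rose by 1.28 in Auxin and was not called as changed after washout (adjusted p = 0.684).

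**Figure D3:**
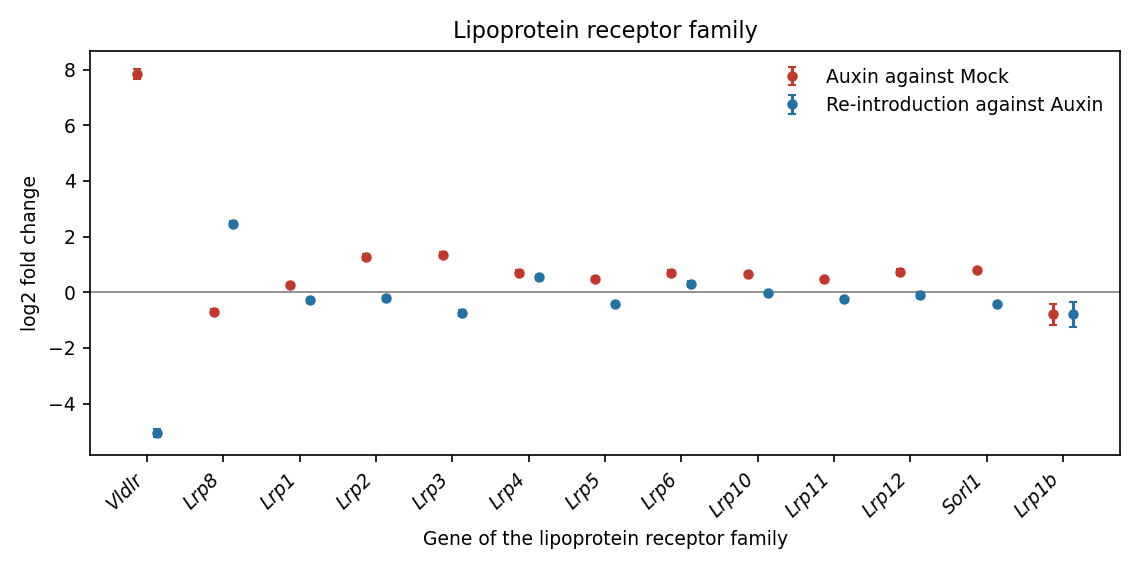
Log2 fold change of Vldlr and 12 other genes of the lipoprotein receptor family in Auxin against Mock (red) and Re-introduction against Auxin (blue); error bars are standard errors. Vldlr (7.83 and -5.05) and Lrp8 (-0.70 and 2.46) lie on opposite sides of 0 in both comparisons, and apart from Vldlr and the blue point of Lrp8 the points lie within 1.34 of 0 with TMM scaling.

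Of the 12 family members listed besides Vldlr, 10 rose and 1 fell in Auxin against Mock, with a median of 0.67. Lrp2 rose by 1.27 and Lrp3 by 1.34, the latter sharing exon sequence with Slc7a10. With each library's trend over exon length removed, the family's median was 0.20, and 6 of the 12 passed the test upward and 3 downward. The calls of Lrp4 (0.17), Lrp5 (-0.01) and Lrp6 (-0.006) were then lost, Lrp1 (-0.55) and Lrp1b (-1.65, sharing exon sequence with Gm27348) were called lower, and Vldlr was 7.31. After washout 3 of the 12 rose and 5 fell, and in Re-introduction against Mock 9 were called higher and 1 lower. With the length trend removed the latter became 8 and 4, and Sorl1 (-0.22), Lrp5 (-0.46) and Lrp1 (-0.92) were among the 4.

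Fut1 stood beside 9 tested fucosyltransferase genes, of which 5 rose and 2 fell in Auxin against Mock, where 73.2% of all tested genes were called. The split was 6 and 1 with total counts, and 4 and 2 with DESeq2 size factors or with the length trend removed. Fut4, an alpha-1,3-fucosyltransferase, rose by 1.38 from 0.305 to 0.783 CPM and fell by 1.07 after washout. Sec1 and Fut2, which encode the same kind of alpha-1,2 enzyme as Fut1, rose by 0.85 and 0.93; Sec1 shares exon sequence with Ntn5, and the Fut2 call (edgeR, adjusted p = 0.0446) was lost with DESeq2 size factors. Fut9 changed by -0.03 in Auxin, which was not called (adjusted p = 0.892). It was 0.18 with total counts and called lower, at -0.73, with the length trend removed. After washout it rose from 13.9 to 36.7 CPM, by 1.40. Fut10 fell by 1.03 in Auxin.

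A list of integrated stress response genes, which mixes regulators with other genes such as Chac1, was set beside the 7 genes. Of 16 listed, 14 rose and 1 fell in Auxin against Mock, with a median of 2.82, and 12 fell and 2 rose after washout, with a median of -2.15. Trib3, a pseudokinase that restrains ATF4, rose from 13.1 to 201 CPM (3.94) and fell by 4.60 to 8.27 CPM. Atf5 rose by 3.93 and Nupr1, a stress-induced chromatin protein gene, by 5.51. Chac1, which degrades glutathione, rose by 6.30 and fell by 7.59, and Ddit3, which encodes CHOP, rose by 3.45 and fell by 3.77. Atf4 itself, named here after its values were seen, rose from 241 to 597 CPM (1.31) and fell to 171 CPM. The eIF2 kinase genes, also named after their values were seen, moved less in Auxin against Mock than the genes named above. Eif2ak1 was the gene that fell (-0.63), and Eif2ak3 (0.60) and Eif2ak4 (0.49) rose. Eif2ak2 was not called (-0.27) but was called lower, at -0.43, with the length trend removed. Atf5, Ddit3, Eif2ak1, Eif2ak2 and Eif2ak3 share exon sequence with other genes, so their counts are uncertain.

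**Figure D4:**
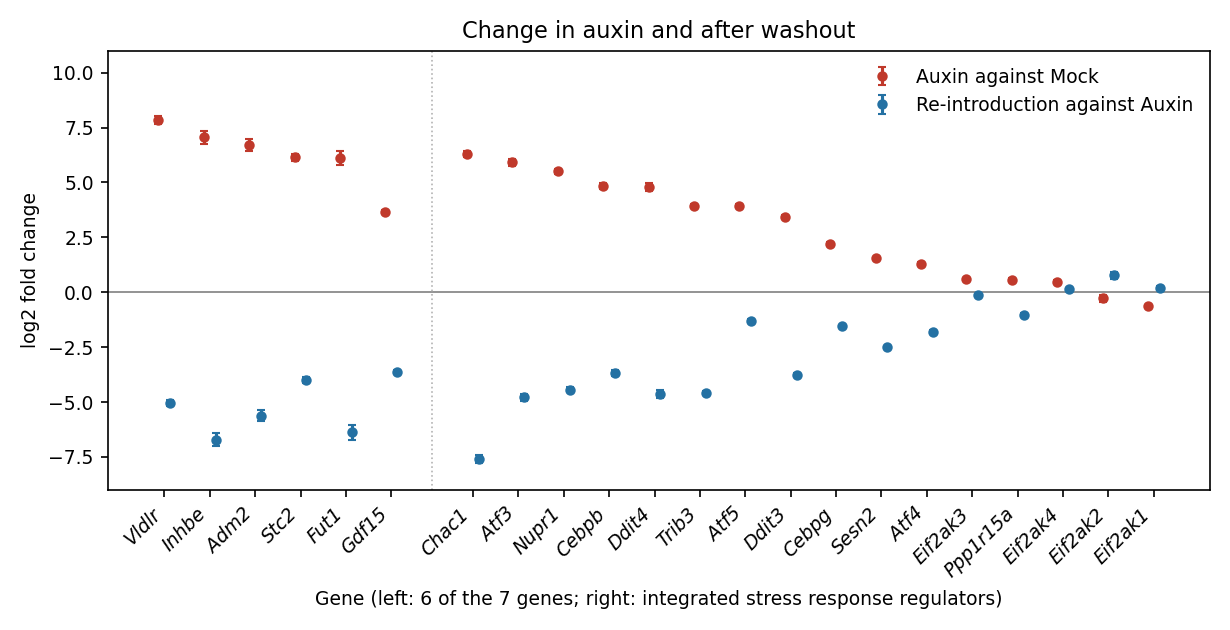
Log2 fold changes in Auxin against Mock (red) and Re-introduction against Auxin (blue), with standard errors. On the left are 6 of the 7 genes (Fgf21, at 0 in Mock, is left out). On the right, ordered by the first change, are the 16 listed integrated stress response genes, which the axis calls regulators. The 6 genes range from 3.67 to 7.83 in Auxin, and among the 16 listed Chac1 has both the largest rise (6.30) and the largest fall (-7.59).

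The list was chosen with these data known, so its counts are a description of the same libraries. Against Mock after washout, 8 of the 16 listed genes were called higher and 7 lower. Atf5 was still 2.62 above Mock, while Sesn2 lay 0.94 below it on the log2 scale and Trib3 0.66 below it.

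All 14 listed amino acid genes that ATF4 controls rose in Auxin and fell after washout, with medians of 1.04 and -1.34. With the length trend removed 13 of the 14 were called higher in Auxin, the exception being Slc7a11 (0.18), the cystine transporter gene. Aldh1l2, a mitochondrial folate enzyme gene that shares exon sequence with D10Wsu102e, rose by 4.71 and was still 3.09 above Mock after washout. Cth, of cysteine synthesis, rose by 1.97 and fell by 1.56, Mthfd2 fell by 2.56, and Aldh18a1, of proline synthesis, rose by 1.5 and fell by 1.98.

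A list of endoplasmic reticulum chaperones and other unfolded protein response genes was mostly lower in Auxin. Of 12, 8 fell and 4 rose in Auxin against Mock (median -0.48), and 9 rose and 1 fell after washout (median 0.70). Hspa5, the main luminal Hsp70, went from 810 to 464 and then 1580 CPM, changes of -0.80 and 1.77. Herpud1, which serves degradation of misfolded protein, rose by 2.57 in Auxin and fell by 3.03 after washout, and Xbp1, a transcription factor gene of the unfolded protein response, rose by 1.16. Neither is a chaperone, nor is Edem1, which rose by 0.38 (not called with the length trend removed) and serves degradation of misfolded protein. The remaining gene that rose was the co-chaperone gene Dnajb9, by 0.53; it and Edem1 are named here after their values were seen.

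Markers of other cell types moved with the groups. Summed primitive endoderm markers were 27.9 to 29.2 CPM in Mock, then 53.8 to 55.9 CPM with Auxin and 45.6 to 47.9 CPM after washout, with all 8 markers called higher in Auxin (the calls of Pdgfra and Lama1 were lost with the length trend removed). Lama1 made up most of these sums, with means of 21.7, 31.6 and 32 CPM. Trophoblast markers summed to 71.9 to 76.9, 113 to 126 and 121 to 126 CPM in the same order. Tfap2c made up 27.2, 86.6 and 45 CPM of this on average, and Eomes 35.4, 25.6 and 66.9 CPM. Of 7 tested, 4 were called higher and 3 lower in Auxin, the latter being Cdx2 (-4.32), Eomes (-0.46) and Plet1 (-0.87). Fibroblast markers summed to 17.8 to 20, 39.1 to 46.4 and 37.4 to 38.8 CPM, nearly all of it Thy1, with means of 17.9, 41.2 and 37.5 CPM. Col1a1 fell by 1.47, Col1a2 was not called (0.85) but was called higher with total counts (1.06), the other 5 were too low to be tested, and Fap was at 0. Neural markers summed to 121 to 130, 95.9 to 108 and 90.2 to 93.0 CPM, with Neurog2 and Dcx at 0. Most of this was Tubb3, with means of 98.6, 72.9 and 63.4 CPM. Of 6 tested, 4 were called lower in Auxin and 1 higher, Map2 (1.36, sharing exon sequence with Gm10558). The lower call of Pax6 was lost with total counts. The part of these other cell types in the levels of the 7 genes was not tested. In bulk RNA, fewer cells of a type and less RNA per cell cannot be told apart. Hepatocyte markers, of interest because Inhbe and Fgf21 are liver genes, summed to at most 0.291 CPM in any library, with Ttr, Serpina1a and Fgb at 0.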

How the data were processed

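Polyadenylated RNA of 9 libraries was sequenced, 3 per group. The deposited values are raw counts per gene, made by the authors with featureCounts 2.0.6 over exons in paired mode without a strand setting, per the file headers. The build was mm10, and the submitters' processing notes also list Trim Galore 0.6.10, FastQC 0.12.1, Bowtie2 2.5.3 and SAMtools 1.20. Counting without strand leaves genes that share exons uncertain (9924 of 48440); the 7 genes share none. Even counts from 2 to 10 were commoner than odd counts in every library, as when both mates of a pair are counted.

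Genes passing filterByExpr (20838) entered 1 edgeR 4.0.16 quasi-likelihood fit (R 4.3.3, limma 3.58.1) of all 9 libraries with TMM factors (0.905 to 1.08) and group as the only term. The common biological coefficient of variation was 9.15%. Tests were two-sided and p-values were adjusted by Benjamini-Hochberg over all tested genes; a call is an adjusted p under 0.05. Log2 CPM used a prior count of 2. Symbols came from a table that named 48058 genes. On simulated counts with 200 genes changed 2-fold, 73%, 66.5% and 82% were recovered in Auxin against Mock (20374 genes), Re-introduction against Auxin (20366) and Re-introduction against Mock (20361), and 3.95%, 5% and 6.82% of calls were false. In the data 73.2%, 50.9% and 68.1% of genes were called, far more than the simulation changed. The simulated shares therefore may not hold for the data.

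The 7 genes and all gene lists were chosen with earlier results of these data known. Named were the 7 genes, genes of the lists of their direct counterparts (related ligands, receptors and binding partners, the lipoprotein receptor family and fucosyltransferases), their 3 neighbours on each side, the 3 genes with the most similar profile, and the 3 genes with the smallest p of each other list in a comparison; exceptions are marked. Alternatives were DESeq2 1.42.0 size factors or Wald test, total counts, no filter, the 2 groups alone, a replicate block, halved counts, removal of the length trend, and leaving out each library. Some genes of the lists are not reported here.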

Additional observations from a re-analysis of the deposited data

How the results depend on the processing

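Members called in Re-introduction against Mock numbered 2 with DESeq2 size factors, the 2 groups alone, the replicate block and halved counts; with the 2 groups alone, only Stc2, Vldlr and Gdf15 passed the filter. They numbered 3 with total counts, no filter, the DESeq2 Wald test and the length trend removed, and 2 to 3 when a library was left out. The added gene was Adm2, at 1.2, 1.07, 1.07 and 1.38 on the log2 scale. Adm2 passed the filter only through its Auxin libraries, so nothing is read from its calls. Over all tested genes, 68.1% were called in the main fit. Leaving out a library turned 3 genes that were not called: Inhbe ranged from -0.79 (without Re-introduction replicate 1) to 0.83. Gdf15 ranged from -0.04 (-0.038 without Mock replicate 2, -0.025 without Re-introduction replicate 2) to 0.10. Fut1 ranged from -1.07 to 0.13 (0.125 without Mock replicate 1, 0.0903 without Re-introduction replicate 2). The cause was not tested. Over all alternatives Stc2 and Vldlr were called each time, and leaving out a library gave 1.97 to 2.29 and 2.55 to 3.00.

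Genes called over all alternatives numbered 14381 to 16236 in Auxin against Mock, 9142 to 11581 in Re-introduction against Auxin and 13106 to 14740 in Re-introduction against Mock. Replicate numbers did not pair the libraries (correlations of deviations from -0.172 to 0.0547). With the replicate number as a block, the counts were 14808, 9829 and 13639, and Stc2 and Vldlr stayed the 2 genes called. Low counts of Inhbe, Adm2, Fgf21 and Fut1 in Mock and Re-introduction limit what could be detected there.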

Other observations

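Other secreted factors linked to stress were not uniformly high in Auxin. Of 18 listed, 10 were tested, and 3 rose and 5 fell in Auxin against Mock. The split depended on the scaling, with 5 called higher and 4 lower both with total counts and with the length trend removed, and 5 and 5 with halved counts. Vegfa, the main angiogenic factor, rose from 2.30 to 127 CPM (5.79 on the log2 scale; edgeR, adjusted p = 9.52e-11). It was at 22.2 CPM after washout, 3.27 above Mock. Angptl4, a lipoprotein lipase inhibitor, fell by 2.43 in Auxin, and Manf, an endoplasmic reticulum stress factor that shares exon sequence with other genes, fell by 1.43 and rose by 1.85 after washout.

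Lists of other stress pathways were mixed in Auxin against Mock. Of 11 hypoxia targets 6 rose and 3 fell, with P4ha2 higher by 1.43, P4ha1 higher by 0.94 and Pdk1 at -1.40. Of 14 p53 targets 8 rose and 5 fell (9 and 2 with total counts), and Pmaip1 rose by 1.43, Plk2 by 1.25 and Cdkn1a by 0.91. Of 7 tested PPAR targets 5 rose and 2 fell, and Cpt1a, of mitochondrial fatty acid import, rose by 2.05 and fell by 1.23 after washout.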
